A study of Rattus norvegicus with 6 samples.

Results

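Integrins are the cell-surface receptors by which cells hold on to their matrix, and laminins are the main adhesive proteins of the basement membrane under an epithelium. The members described here were fixed by name as 31 rat genes: 19 integrin chains, 10 laminin chains, the dystroglycan gene Dag1 and the tetraspanin Cd151. Of these, 28 had a probe set with a single gene symbol on the array and are described, among 18166 genes in all. Itgav, Itgb3 and Lamb1 are not analysed here. RNA came from NRK-52E cells, an epithelial line derived from rat kidney tubules, in 2 groups of 3 arrays. In the NICD1 group the Notch1 intracellular domain, which is the part of the receptor that enters the nucleus, was overexpressed from pINDUCER21, a vector with an inducible promoter. The sources used here do not give what the control cells carried, whether either group received an inducer, or whether the cells were 1 clone. Nor do the labels say that replicates came from different cultures, and p-values therefore reflect only the spread among these arrays, which may be technical.

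Each integrin is a pair of 1 α and 1 β chain, and the α chain largely sets what is bound: collagen, laminin, or ligands with the Arg-Gly-Asp sequence such as fibronectin. Each laminin is a trimer of an α, a β and a γ chain. Epithelia make trimers with the α5 chain, typical of mature tubule basement membranes. They also make trimers of α3, β3 and γ2, typical of skin and other epithelia under mechanical load. Dystroglycan is a laminin receptor that is not an integrin. Notch1 acts through the DNA-binding protein Rbpj, and its direct targets include repressors of the Hes and Hey families.

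Values are RMA intensities on the log2 scale, so a difference of 1 is a 2-fold change, and levels of different genes cannot be set against each other because each has its own probes. Array medians ranged from 57.5 to 60.1 on the linear scale. Notch1 itself was 0.66 higher in NICD1 cells (SE 0.081; limma adjusted p = 0.00181), in the direction of the label, although the position of its probes is not given. A level of 5.74, under which 95% of 1382 chemosensory receptor genes fell, is used as background. Of 11 measured kidney epithelium markers 6, among them Cdh1, Epcam and Pax8, lay below that level on all 6 arrays, whereas Krt8 lay far above it. Krt8 was also the 1 of the 11 that changed, with a rise of 1.08 (SE 0.055). Its mean was 10.36 in control and 11.44 in NICD1 arrays. The summed linear intensity of these markers, Krt8 included, was 1736 to 1784 in control and 3128 to 3315 in NICD1 arrays. Markers of other cell types were also measured. Of 8 fibroblast and pericyte markers 2 rose (Col1a1 by 0.90 and Col3a1 by 0.46) and 4 lay below background on every array, and their summed linear intensity was 1085 to 1202 in control and 1437 to 1524 in NICD1 arrays. Of 6 endothelial markers Tek fell by 0.57 and Flt1 rose by 0.35. The 5 other than Tek, Flt1 included, lay below background on every array. The summed linear intensity of the 6 was 362 to 391 in control and 310 to 331 in NICD1 arrays. The part of these markers in the results was not tested.

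Of the 28 measured members, 12 changed in NICD1 cells, 7 upward and 5 downward, where 14.7% of all genes tested did (7.45% upward and 7.22% downward). The rises were those of the laminin chains Lama3, Lamb3 and Lamc1 and the integrin chains Itga1, Itga5, Itga11 and Itgb5. The falls were those of the laminin chains Lama5 and Lamb2, the integrin chains Itga3 and Itgb8, and Dag1. Changed means an adjusted p (limma, Benjamini-Hochberg, all 18166 genes) under 0.05. Members were chosen with earlier results of these data known, so the shares in this paragraph are no independent evidence of an excess. Fewer expressing cells and less RNA per cell cannot be told apart in these bulk samples. The median difference of the 28 was 0.0012, against 0.0073 over all genes. Its median size of difference without regard to sign was 0.25, against 0.10 over all genes. Of the 28, 19 lay above background in at least 1 group, and 11 of those 19 changed, where 21.8% of the 11413 genes above background did. The groups did not overlap for 19 of the 28, against 32.8% of all genes. An exact permutation test of 3 arrays against 3 cannot go below p = 0.1, so it cannot pass for any single gene here.

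**Figure D1:**
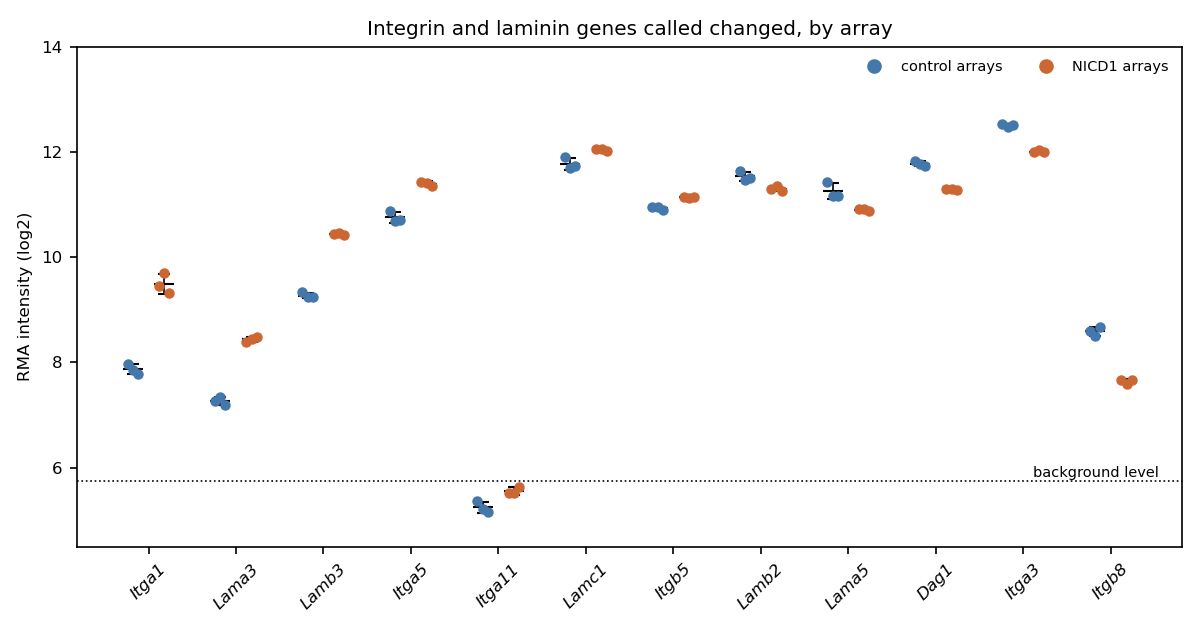
RMA intensity (log2, vertical axis) of the 12 changed members on each of the 3 control (blue) and 3 NICD1 (orange) arrays, ordered from the largest rise to the largest fall. Horizontal ticks and bars are the mean and SD of 3 arrays, and the dotted line is the background level of 5.74. The groups are apart for all 12, and Itga11 lies below the dotted line on every array.

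Calls for 7 of the 12, Itga1, Itga5, Lama3, Lamb3, Itga3, Itgb8 and Dag1, were made under every one of the 15 alternative settings tried. The other 5 had smaller differences, from 0.21 to 0.36 in size, and each was lost under some of them. The count of rises was 4 without control replicate 2 and also without any 1 of the NICD1 arrays, whereas 3 members fell when NICD1 replicate 1 or 2 was left out.

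**Figure D2:**
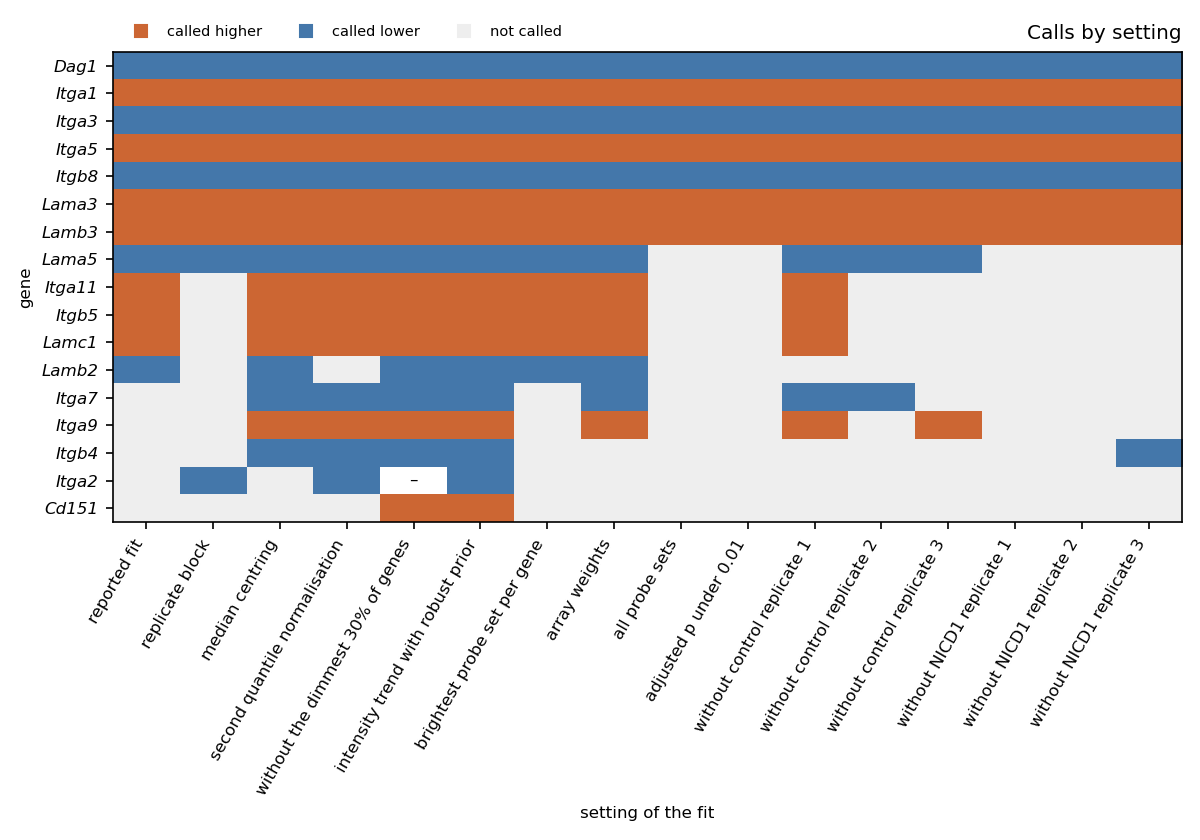
Calls of the 17 members called under at least 1 setting (vertical axis) in the reported fit and 15 alternatives (horizontal axis). Orange cells are calls of a higher level in NICD1, blue cells calls of a lower level, grey cells no call, and a dash marks a gene not in that fit. The top 7 genes are coloured in every column, and Lama5, Itga11, Itgb5, Lamc1 and Lamb2 lose their colour in several.

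Among the laminins, Lama3 and Lamb3, which encode the α3 and β3 chains of the same trimer, rose by almost the same amount. Lama3 (Entrez gene 307582) measured 7.27, 7.34 and 7.19 in control and 8.39, 8.45 and 8.48 in NICD1 arrays. All NICD1 values lay above all control values, and the rise was 1.18 (SE 0.060; 95% interval 1.03 to 1.32), or 2.26-fold, with limma adjusted p = 3.24e-05. Lamb3 (Entrez gene 305078) measured 9.33, 9.25 and 9.24 in control and 10.44, 10.46 and 10.43 in NICD1 arrays. It also separated the groups on every array, and it rose by 1.17 (SE 0.052; 95% interval 1.04 to 1.29), or 2.25-fold (limma adjusted p = 2.12e-05). The gene of the γ2 chain that completes this trimer is not among the members.

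Of the measured chains of the α5 laminins, Lama5 and Lamb2 fell, while Lamc1 rose. Lamb1, which encodes the β1 chain, is not analysed here. Lama5 (Entrez gene 140433), the α5 chain, measured 11.44, 11.17 and 11.17 in control and 10.92, 10.91 and 10.87 in NICD1 arrays, with control replicate 1 the highest of all. It fell by 0.36 on the log2 scale (SE 0.083; limma adjusted p = 0.0292). Lamb2 (Entrez gene 25473), the β2 chain of mature basement membranes, measured 11.64, 11.48 and 11.50 in control and 11.30, 11.35 and 11.27 in NICD1 arrays. The groups did not overlap, and the fall was 0.24 (SE 0.063; limma adjusted p = 0.0492). Lamc1 (Entrez gene 117036), the γ1 chain shared by most laminins, measured 11.91, 11.70 and 11.74 in control and 12.06, 12.07 and 12.01 in NICD1 arrays. It rose by 0.26 (SE 0.068; limma adjusted p = 0.0433), in the opposite direction to Lama5 and Lamb2. The call of Lama5 was lost without any 1 of the NICD1 arrays (largest limma adjusted p 0.0912). That of Lamb2 was lost without any 1 of the 6 arrays (0.0713 to 0.149) and after a second quantile normalisation. That of Lamc1 was lost without any 1 array except control replicate 1. The limma adjusted p of Lamc1 was 0.0123 without that array and up to 0.129 without another.

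The remaining laminin chains were near or below background. Lama1, an α chain known from early embryonic and tubule basement membranes, had a difference of 0.066 (SE 0.082). Lama2, the muscle and nerve chain, had one of -0.084 (SE 0.11). Lama4, a chain of vessel and mesenchymal basement membranes, had a difference of 0.17 (SE 0.078; limma adjusted p = 0.212), and its 2 probe sets gave 0.19 and 0.15. All 3 lay below background on every array. Lamc3, the γ3 chain, lay just above background, at 6.13 ± 0.09 in control and 6.06 ± 0.20 in NICD1 cells (SD, n = 3 each), with a difference of -0.070 (SE 0.11).

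Because Lama3 and Lamb3 rose together, the bases before their starts are shown, with those of Itga1 and Itgb8, the integrin chains with the largest rise and the largest fall. Each run holds the 250 bases before the annotated start, 5′ to 3′ on the strand of the gene, from RefSeq (build GRCr8), and capitals mark matches to the motifs named below. The Lama3 window is chr18:3952517-3952766 (plus strand) and lies inside the annotated gene, before an inner start. The Lamb3 window is chr13:107362303-107362552 (plus strand), that of Itga1 is chr2:48545284-48545533 (minus strand) and that of Itgb8 is chr6:146351246-146351495 (minus strand).
Lama3: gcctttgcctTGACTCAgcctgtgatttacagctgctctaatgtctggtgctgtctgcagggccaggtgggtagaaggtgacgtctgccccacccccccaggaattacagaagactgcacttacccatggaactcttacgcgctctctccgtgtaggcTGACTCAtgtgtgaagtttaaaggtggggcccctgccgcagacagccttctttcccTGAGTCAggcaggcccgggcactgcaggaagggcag
Lamb3: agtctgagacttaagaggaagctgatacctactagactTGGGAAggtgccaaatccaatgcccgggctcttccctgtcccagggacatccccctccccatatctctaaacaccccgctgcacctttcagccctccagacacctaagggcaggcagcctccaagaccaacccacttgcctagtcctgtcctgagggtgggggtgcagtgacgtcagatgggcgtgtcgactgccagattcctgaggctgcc
Itga1: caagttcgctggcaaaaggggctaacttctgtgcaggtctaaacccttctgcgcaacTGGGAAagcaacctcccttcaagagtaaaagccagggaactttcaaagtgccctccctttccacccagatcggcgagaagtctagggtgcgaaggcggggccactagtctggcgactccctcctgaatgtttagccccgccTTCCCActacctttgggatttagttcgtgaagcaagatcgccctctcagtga
Itgb8: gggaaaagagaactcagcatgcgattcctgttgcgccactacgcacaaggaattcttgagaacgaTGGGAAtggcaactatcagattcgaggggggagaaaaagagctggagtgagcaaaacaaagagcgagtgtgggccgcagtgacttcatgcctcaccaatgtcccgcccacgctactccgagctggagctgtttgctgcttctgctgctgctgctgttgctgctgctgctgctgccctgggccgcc

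Both strands were searched for the Rbpj core TGGGAA, the AP-1 motif TGANTCA, and the Hes and Hey motifs CACGTG and CACGCG, none of which overlapped another match. The Lama3 window held the AP-1 letters 3 times, starting 240, 92 and 36 bases before the start. AP-1 letters were present in 6.34% of the 33465 windows of this length in the table. The 5 windows with 3 or more copies (0.0149%) include that of Lama3. The median share of G and C bases was 51.2% in all windows and 59.6% in those of the members. Windows were not matched for this share, and the motifs were chosen with earlier results of these data known. The Lamb3 window held no AP-1 letters and 1 copy of the Rbpj core, so the windows of this pair shared no searched motif. The Itga1 window held the Rbpj core on each strand once, starting 193 and 52 bases before the start, and at least 2 copies occurred in 2.71% of all windows. The Itgb8 window, of a gene that fell, held 1 copy. Among the 23 members with a window, the core was present in 3 of 7 that rose, 1 of 3 that fell and 2 of 13 that did not pass, against 22.1% of all windows. The windows of Itga3, Itga4, Itgb6 and Itgb7, like that of Lama3, lie inside the annotated gene. CACGCG was present in 1 member, Lamc1, against 7.14% of all windows, and CACGTG in 0 of the 23, against 5.59%. A match describes letters and is no evidence of binding.

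**Figure D3:**
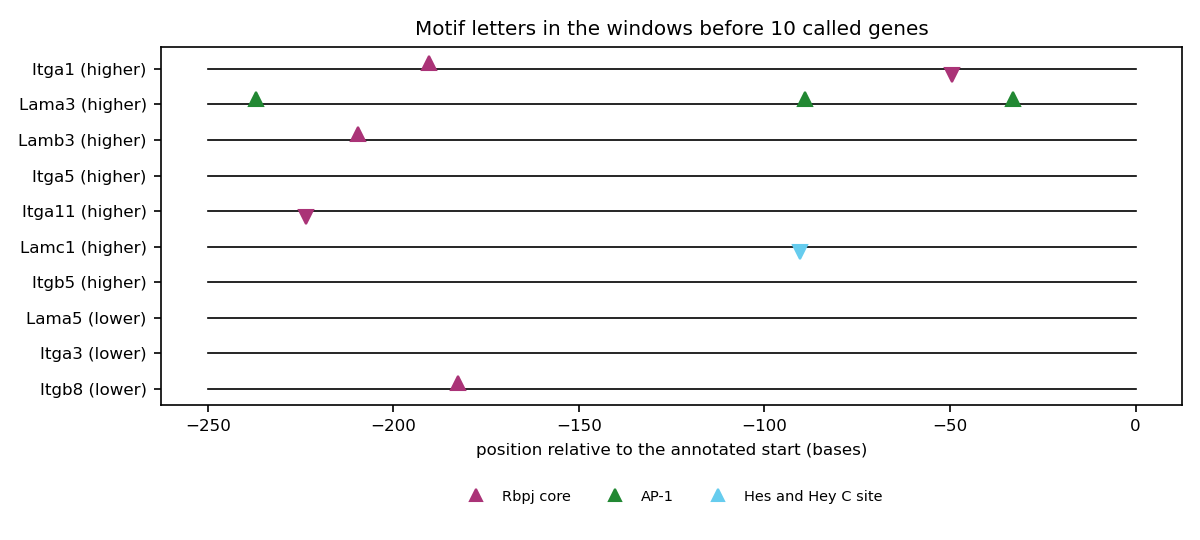
Positions of motif letters in the 250 bases before the start (horizontal axis, bases) of the 10 changed members that have a window, ordered from the largest rise to the largest fall. Upward triangles lie on the strand of the gene and downward triangles on the other strand, in purple for the Rbpj core, green for AP-1 and light blue for the Hes and Hey motif CACGCG. The 3 AP-1 matches are all in Lama3, and Itga5, Itgb5, Lama5 and Itga3 hold no match. The windows of Lama3 and Itga3 lie inside the annotated gene.

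Of the integrin α chains that bind collagen, Itga1 had the largest rise of all members. Itga1 (Entrez gene 25118), which encodes the α1 chain of the receptor that prefers basement membrane collagen, measured 7.97, 7.85 and 7.79 in control and 9.45, 9.70 and 9.32 in NICD1 arrays. The lowest NICD1 value lay well above the highest control value. The rise was 1.62 (SE 0.104; 95% interval 1.38 to 1.87), or 3.08-fold, with limma adjusted p = 9.00e-05. Itga11 (Entrez gene 315744), the α chain of a receptor for fibrillar collagen on fibroblasts, measured 5.36, 5.21 and 5.16 in control and 5.52, 5.51 and 5.64 in NICD1 arrays. It rose by 0.31 (SE 0.072; limma adjusted p = 0.0285) at levels below background throughout. Its call was lost without any 1 array except control replicate 1 (limma adjusted p 0.0637 to 0.0961). Without control replicate 1 the limma adjusted p was 0.0164.

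Itga2, the other widely expressed collagen receptor chain and the gene next to Itga1, had a difference in the opposite direction. It measured 4.69, 4.37 and 4.43 in control and 4.18, 4.09 and 3.71 in NICD1 arrays, all below background. The difference of -0.51 (SE 0.14) did not pass (limma adjusted p = 0.0577), but it passed under 3 of the 14 alternatives that include it, the replicate block, a second quantile normalisation and an intensity trend. Itga10, a cartilage chain, also lay below background and had a difference of -0.077 (SE 0.086).

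Of the α chains that bind laminin, Itga3 fell. Itga3 (Entrez gene 360606) encodes the α3 chain of the main epithelial receptor for the α3 and α5 laminins and is needed for normal kidney basement membranes. It measured 12.53, 12.48 and 12.52 in control and 12.00, 12.04 and 12.00 in NICD1 arrays, with little spread within either group. The fall was 0.50 on the log2 scale (SE 0.049; limma adjusted p = 0.000642), so the control level was 1.41-fold the NICD1 level. The α3 integrin chain fell in the same cells in which the α3 laminin chain rose.

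Itga6 and Itgb4 encode the pair that anchors hemidesmosomes to the α3 laminin trimer. Itga6 measured 9.78, 9.86 and 9.89 in control and 9.81, 9.77 and 9.75 in NICD1 arrays, with overlapping groups. Its difference of -0.070 had a 95% interval from -0.20 to 0.06, which excludes a change as large as that of Itga3. Itgb4 measured 7.26, 7.15 and 7.23 in control and 6.82, 6.74 and 7.07 in NICD1 arrays. The groups did not overlap, but the difference of -0.34 (SE 0.093) did not pass (limma adjusted p = 0.0552). Itga7, a laminin receptor chain best known from muscle, had means of 6.19 in control and 5.80 in NICD1 arrays, the latter just above background. Its difference of -0.39 (SE 0.107) did not pass either (limma adjusted p = 0.0526), and ranged from -0.47 to -0.27 with 1 array left out. Its call was gained under 7 of the 15 alternatives, median centring and leaving out control replicate 1 or 2 among them. The difference of Itgb4 passed under 5 of the 15.

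Itga5, the α chain of the classical fibronectin receptor, rose. Itga5 (Entrez gene 315346) measured 10.89, 10.70 and 10.70 in control and 11.43, 11.42 and 11.35 in NICD1 arrays. The groups lay clearly apart, and the rise was 0.64 (SE 0.069; 95% interval 0.48 to 0.80), or 1.56-fold, with limma adjusted p = 0.000937. Its ligand fibronectin, Fn1, rose as well, by 0.90 (SE 0.049). Itga8, another chain that binds Arg-Gly-Asp and is known from kidney development and mesangium, lay below background on every array and had a difference of 0.16 (SE 0.16).

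The α4 and α9 chains form receptors for cell-adhesion molecules, tenascin and fibronectin. Itga9 measured 6.06, 5.88 and 5.43 in control and 6.40, 6.32 and 6.31 in NICD1 arrays. Every NICD1 value lay above every control value, but the control arrays were spread out, and the difference of 0.55 (SE 0.15) did not pass (limma adjusted p = 0.0516). It passed under 7 of the 15 alternatives. Itga4, known from leukocytes, lay below background and had a difference of 0.026 (SE 0.075).

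Of the 6 measured β chains, Itgb8 fell, Itgb5 rose and 4 did not pass. Itgb8 (Entrez gene 362800), which pairs with αv and releases active TGF-β from its latent form, measured 8.59, 8.50 and 8.68 in control and 7.66, 7.60 and 7.67 in NICD1 arrays. The groups were far apart relative to their spread, and the fall was 0.95 on the log2 scale (SE 0.063; 95% interval -1.10 to -0.80), with the control level 1.93-fold the NICD1 level (limma adjusted p = 0.000102). In the same cells the TGF-β1 precursor gene Tgfb1 rose by 1.30 (SE 0.053). Itgb5 (Entrez gene 257645), an αv partner that binds vitronectin, measured 10.95, 10.95 and 10.89 in control and 11.15, 11.14 and 11.15 in NICD1 arrays. It rose by 0.21 (SE 0.049; limma adjusted p = 0.0275). That call was lost without any 1 array except control replicate 1 (limma adjusted p 0.0656 to 0.0956). Without control replicate 1 the limma adjusted p was 0.0407.

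Itgb1 encodes the β1 chain, the partner of the α1, α2, α3, α5 and several other chains described here. It measured 12.55, 12.62 and 12.56 in control and 12.60, 12.54 and 12.56 in NICD1 arrays, with fully mixed groups. The difference was -0.013 (SE 0.051), with a 95% interval from -0.13 to 0.11, so the changes of Itga1, Itga5 and Itga3 were each outside what this interval allows for their common partner. Itgb6, the αv partner induced in injured epithelium, lay below background and had a difference of -0.085 (SE 0.057). Itgb7, a leukocyte chain, measured 6.01 ± 0.22 in control and 6.02 ± 0.15 in NICD1 cells (SD, n = 3 each).

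**Figure D4:**
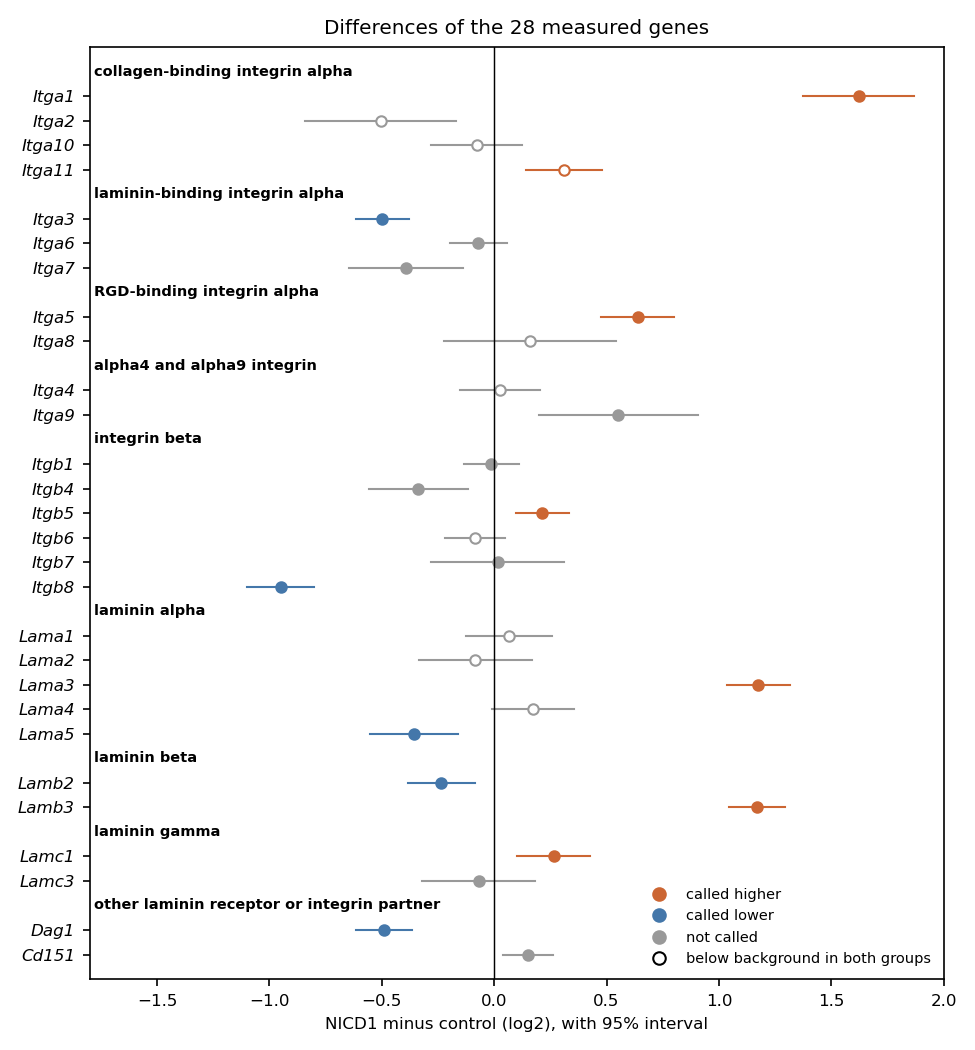
Difference between NICD1 and control (log2, horizontal axis) for each of the 28 measured members (vertical axis, grouped by role), with its 95% interval from limma. Orange marks genes that rose, blue genes that fell, grey genes that did not pass, and open circles lie below background in both groups. Itga1, Lama3 and Lamb3 lie farthest to the right and Itgb8 farthest to the left, while Itgb1 lies at -0.013.

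The non-integrin laminin receptor fell. Dag1 (Entrez gene 114489), which encodes both subunits of dystroglycan, measured 11.83, 11.77 and 11.73 in control and 11.31, 11.29 and 11.28 in NICD1 arrays. The groups did not overlap, and the fall was 0.49 on the log2 scale (SE 0.052; 95% interval -0.61 to -0.37; limma adjusted p = 0.000887). Its size was close to that of Itga3. Cd151, the tetraspanin that binds the α3 and α6 integrins, measured 12.55, 12.54 and 12.55 in control and 12.69, 12.71 and 12.70 in NICD1 arrays. The groups did not overlap, but the difference of 0.15 (SE 0.047) did not pass (limma adjusted p = 0.0819), and it passed under 2 of the 15 alternatives.

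Genes that work with the members changed in both directions. The counts in the lists that follow stand beside shares of 14.7% of all genes and 21.8% of genes above background. These lists, too, were chosen with earlier results of these data known, so their shares are no independent evidence of an excess. In the list of the integrin adhesion complex, the proteins that couple integrin tails to actin and signalling, 7 of 36 measured genes rose and 4 fell (30.6% changed), with a median difference of 0.072. Ptk2b, a kinase related to focal adhesion kinase, rose by 2.01 (SE 0.083), from 8.52, 8.39 and 8.21 to 10.38, 10.37 and 10.41. Focal adhesion kinase itself, Ptk2, had a difference of 0.17 that did not pass (limma adjusted p = 0.104). The adaptor paxillin, Pxn, rose by 0.56, the actin cross-linker Actn1 by 0.41 and the actin regulator Vasp by 0.34. Tln2, one of the talins that activate integrins by binding the β tail, fell by 0.79 (SE 0.059), and Kank2, a talin-binding protein, fell by 0.29. Tln1, the other talin, had a difference of -0.089 (SE 0.057). In this list 4 genes rose when control replicate 3, or NICD1 replicate 2 or 3, was left out. Leaving out control replicate 2 or 3, or NICD1 replicate 1 or 3, left 2 falls, and leaving out NICD1 replicate 2 left 1.

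Among 18 measured basement membrane partners of laminin, 5 rose and 3 fell (44.4% changed), with a median difference of 0.016. The heparan sulphate proteoglycans Sdc4 and Sdc1, which bind laminin and fibronectin beside integrins, rose by 0.69 (SE 0.049) and 0.54 (SE 0.050). Nid2, a nidogen that links laminin to collagen IV, rose by 0.62, and the laminin-related netrin Ntn4 by 0.41. Fras1, a protein of embryonic epithelial basement membranes, fell by 1.28 (SE 0.143), from 8.09, 7.58 and 7.66 to 6.59, 6.57 and 6.33. The collagen IV chain Col4a5 fell by 0.32, and Bcam, a receptor for the laminin α5 chain, fell by 0.50 (SE 0.106), in the direction of Lama5.

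Of 21 measured extracellular ligands of integrins other than laminin, 7 rose and 3 fell (47.6% changed), with a median difference of 0.042. Beside Fn1 and Tgfb1, the matrix protein Postn rose by 2.15, Mfge8, an Arg-Gly-Asp protein bound by αv integrins, by 0.58, and the fibrillin Fbn1 by 0.56. Ccn1, a matricellular ligand of several integrins, fell by 0.42. In the dystroglycan list, 4 of 13 measured genes rose and 3 fell (53.8% changed), with a median of -0.051. Some parts of the complex that joins dystroglycan to the cytoskeleton fell, as Dag1 did, and others rose. The sarcoglycan Sgcd fell by 0.92 (SE 0.100), the dystrobrevin Dtnb by 0.67 (SE 0.060) and dystrophin, Dmd, by 0.44 (SE 0.057). The relative of dystrophin, utrophin (Utrn), rose by 0.44 (SE 0.062), the syntrophin Sntb2 by 0.30 (SE 0.065) and Sgca, from below background, by 0.40. B4gat1, an enzyme of the laminin-binding glycan of dystroglycan, rose by 0.45 (SE 0.048). The rises of this list numbered 2 without control replicate 1 or NICD1 replicate 2.

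In the list of hemidesmosome and tetraspanin partners 5 of 10 measured genes rose and 2 fell, so 7 of 10 changed, with a median of 0.13. The keratin Krt14, which hemidesmosomes anchor in basal epithelial cells, rose by 2.62 (SE 0.053). The hemidesmosomal Plec and Col17a1 had differences of -0.015 and -0.016, and Col17a1 lay below background. Cd47, an integrin-associated protein, rose by 0.55, the tetraspanin Cd82 by 0.35 and Slc3a2, which binds β1 tails, by 0.28, while the tetraspanin Tspan4 fell by 0.47. Cd9 rose by 0.29 below background. The rises numbered 4 and the falls 1 without any 1 of the 6 arrays.

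**Figure D5:**
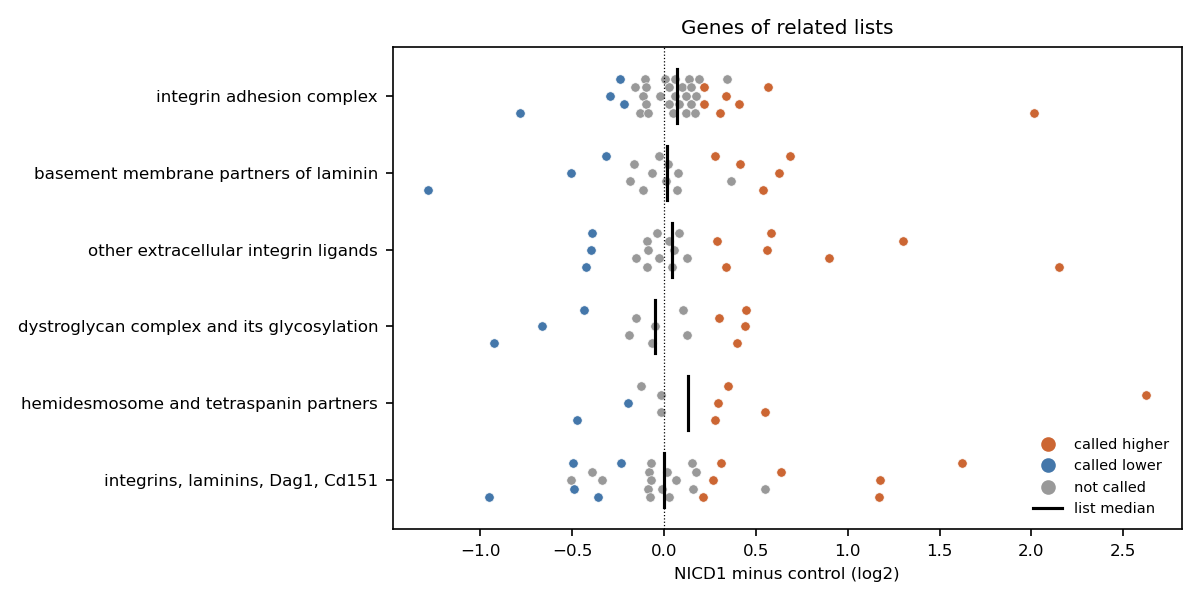
Difference between NICD1 and control (log2, horizontal axis) for every measured gene of 5 related lists and of the 28 members (vertical axis). Orange points rose, blue points fell, grey points did not pass, and black bars are list medians. All medians lie between -0.051 and 0.13, with changed genes on both sides of 0 in every list.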

How the data were processed

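The authors deposited linear RMA intensity values per probe set. The submitters' processing notes name Affymetrix Expression Console. Since RMA forces arrays to 1 distribution, a change common to most transcripts would not be seen. The sources used here name no software version, array type or genome build. Groups and replicate numbers come from the sample titles. Log2 was taken with no pseudocount. The platform annotation, which can be old, gives 1 symbol for 18511 of 36685 probe sets, several for 575 and none for 17599. Those with 1 symbol were averaged over each symbol, giving 18166 genes. All 28 measured members matched RefSeq (GRCr8) by gene identifier, and 23 have a promoter window.

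The test was limma 3.58.1 in R 4.3.3 (lmFit and eBayes, group as the only term, two-sided, Benjamini-Hochberg over all 18166 genes). Alternatives were the replicate block, median centring, a second quantile normalisation, no dimmest 30% of genes, an intensity trend with robust prior, the brightest probe set, array weights, all probe sets, a threshold of 0.01 and leaving out each array. Precision is limited by having 3 arrays per group. In data simulated for this comparison over 18166 genes, 88.1% of changes of 0.5 and 98.5% of changes of 1 were recovered, with 8 false calls among 199. The simulated noise was normal and independent, and 67, 67 and 66 genes were given changes of 0.5, 1 and 2. These are far fewer genes than were called here, and changes under 0.5, such as those of the members with unstable calls, were not simulated. Named genes are all members and, per list, up to 6 changed genes with the smallest adjusted p. Ptk2, Tln1, Plec, Col17a1, Bcam and Sntb2 were named after their values were seen. Members, lists, background level and motifs were chosen with earlier results of these data known. Figures were drawn with matplotlib 3.10.9.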

Additional observations from a re-analysis of the deposited data

How the results depend on the processing

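Of the 28 members, 7 were called in the reported fit and under all 15 alternatives, 5 lost their call under at least 1, 5 gained one under at least 1, and 11 were called under none. Against 2666 genes, 7 member rises and 5 member falls in limma, fitting all probe sets gave 1566, 4 and 3, and a threshold of 0.01 gave 1473, 4 and 3. An intensity trend gave 8 member falls. Leaving out 1 array gave 1830 to 2486 genes, 4 to 8 member rises and 3 to 5 member falls. Replicate numbers did not pair the arrays: deviations of same-numbered arrays correlated at -0.032, -0.011 and -0.013, and 0 of 6 arrays correlated best with their own number. With the replicate block 4 members rose and 5 fell, with Itga2 called and Lamb2 not. Members not called under the setting changed sign near 0: Itga4 (-0.0015) and Itgb7 (-0.0060) after a second quantile normalisation, and, with 1 array left out, Itga10 (-0.13 to 0.017), Itga4 (-0.041 to 0.092), Itgb1 (-0.029 to 0.0089), Itgb7 (-0.065 to 0.14), Lama1 (-0.015 to 0.14), Lama2 (-0.15 to 0.016) and Lamc3 (-0.15 to 0.042). Over all settings the adhesion complex list had 4 to 13 rises and 1 to 6 falls, and the dystroglycan list 2 to 4 rises. The hemidesmosome list had 4 to 5 rises and 1 to 3 falls. Signal near background limits what can be said of the 9 members below it.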

Other observations

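Itgax, which encodes a leukocyte integrin chain and is not a member of the set, rose in NICD1 cells. It measured 6.14, 5.68 and 6.33 in control and 8.14, 8.08 and 7.91 in NICD1 arrays, and every NICD1 value lay above every control value. The rise was 2.00 (SE 0.16), or 3.99-fold (limma adjusted p = 0.000246), and it was larger than that of any of the 28 members. Itgb2, which encodes the β chain that Itgax needs to reach the cell surface, had a difference of 0.057 (SE 0.087). The genes on either side of Itgax encode related leukocyte chains, and neither passed. Itgam had a difference of 0.037 (SE 0.15) and Itgad one of -0.087 (SE 0.084). Itgam lay below background on all 6 arrays, so its small difference does not show that an expressed gene was unchanged. Of the 10 measured leukocyte and platelet markers Cd68 also rose, by 0.27, and 7, Ptprc, Cd3e and Csf1r among them, lay below background on all 6 arrays. The summed linear intensity of this list without Itgax was 353 to 371 in control and 388 to 393 in NICD1 arrays, and with Itgax 422 to 433 and 631 to 675.

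The 12 changed members have 24 adjacent protein-coding genes in the rat gene order, of which 20 were measured. Of these, 4 changed, a count near the background of 14.7% of all genes and 21.8% of genes above background, and each had the direction of its member: Pelo, which lies inside Itga1 (0.21), Zfp385a beside Itga5 (0.60), Umps beside Itgb5 (0.34) and Macc1 beside Itgb8 (-0.29). The neighbours of Lama3 and Lamb3 that were measured did not pass, with differences of -0.18 for Ankrd29, -0.096 for G0s2 and -0.068 for Camk1g.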
